A study of Mus musculus with 6 samples.

Results

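The cytosolic ribosomal protein genes of the mouse were followed in MS-5 stromal cells grown by themselves or together with SKM-1 cells. Members were the protein-coding genes of GENCODE M21 whose symbol is Rpl or Rps followed by a number and at most 1 of the letters a, x, y and l, or is Rplp0, Rplp1, Rplp2 or Rpsa, with S6 kinase genes and pseudogene symbols left out. The rule found 80 of the 35968 genes with a transcript in the deposited data, of which 46 belong to the large subunit, 31 to the small subunit and 3 to the P stalk. Of these, 79 reached 10 estimated counts in at least 3 libraries, and all of the 79 were among the 13221 genes tested. Rpl3l, a heart and skeletal muscle form of Rpl3, was not kept and had between 1 and 11 estimated counts in each library.

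MS-5 is a mouse stromal cell line that supports haematopoietic cells in culture, and SKM-1 is a human acute myeloid leukaemia (AML) cell line. The MS-5 only group holds 3 libraries (MO1, MO2 and MO3) and the co-culture group holds 3 (MC1, MC2 and MC3), in which SKM-1 cells were plated over confluent MS-5 cells at 4 AML cells per stromal cell and left for 24 hr. The lines were grown in RPMI with foetal bovine serum, and no drug or genetic change was applied in either group. Mild trypsin treatment ahead of RNA extraction served to free the rinsed MS-5 layer of leukaemic cells that had not come away with the AML suspension. Reads were quantified against mouse transcripts only. Whether the 3 libraries of a group came from separate cultures is not given in the sources used here, so p-values measure the spread between these libraries. Total estimated counts were 23978881 to 35694987 a library. Stromal markers were present in all 6 libraries, with a summed level over 10 markers of 4348 to 6670 CPM (estimated counts relative to the library total, adjusted by edgeR's TMM factors, which were 0.923 to 1.17). The sum of 14 leukocyte markers was 36.6, 39.3 and 50.9 CPM in MO1, MO2 and MO3 and 78.1, 268 and 69.8 CPM in MC1, MC2 and MC3, and 6 of the 10 leukocyte markers that passed the filter on low counts rose in co-culture (beside 3.71% of all genes). Markers near 0 in MS-5 only could pass that filter only through co-culture. Elane and Tyrobp were at or near 0 in every library.

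Ribosomal proteins fold around the ribosomal RNAs to build the small subunit, which reads the mRNA, and the large subunit, which joins amino acids, while the P stalk on the large subunit recruits the elongation factors. Their mRNAs are among the most abundant of a growing cell and begin with a terminal oligopyrimidine (TOP) tract, a C followed by a run of pyrimidines, through which mTORC1 and LARP1 set their translation together. Many ribosomal protein genes also have processed pseudogenes, copies of the mRNA inserted elsewhere in the genome, and reads from near-identical copies can be divided between the gene and its copies when transcripts are quantified.

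Start-site sequences were searched for this tract. RefSeq promoters (GRCm38.p6) were matched for 60 of the 80 members. A C followed by at least 4 pyrimidines, beginning within 5 bases of an annotated start and reaching past it, was present in 27 of these 60 genes (45.0%), and in 4930 of all 27025 genes in the table (18.2%). The letters CCGGAA, searched on both strands over the 300 bases of each promoter, were present in 33 of the 60 members (55.0%) and in 16.7% of all genes, and CACGTG was present in 6 of the 60 and in 8.09% of all genes. Windows of 30 bases, with 10 bases before the start and 20 from it, are given with the tract in capitals. The first 6 were picked for a clear tract, of which Rps18 also turns up in the account of copies. The others are members whose fold changes are described below. Rps7, Rpl5 and Rps3, the members with the highest fold changes after Rpl10l, and Rpl10l itself have no tract by this rule at the annotated start, and Rps27l, a member with one of the lowest fold changes, has a short one. The rule left most of the 60 matched members without a tract, and tract and fold change were not compared across members.
Rpl15 (chr14:18270967-18270996, minus strand): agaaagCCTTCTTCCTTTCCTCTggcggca
Rps10 (chr17:27635225-27635254, minus strand): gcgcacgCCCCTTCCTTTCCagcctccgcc
Rps6 (chr4:86857348-86857377, minus strand): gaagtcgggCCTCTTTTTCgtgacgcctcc
Rps18 (chr17:33955646-33955675, minus strand): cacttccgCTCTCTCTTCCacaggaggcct
Rplp2 (chr7:141447641-141447670, plus strand): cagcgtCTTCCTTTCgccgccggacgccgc
Rpl38 (chr11:114668570-114668599, plus strand): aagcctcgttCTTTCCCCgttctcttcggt
Rps27l (chr9:66946076-66946105, plus strand): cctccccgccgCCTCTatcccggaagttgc
Rps7 (chr12:28635934-28635963, minus strand): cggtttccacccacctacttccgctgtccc
Rpl5 (chr5:107900518-107900547, plus strand): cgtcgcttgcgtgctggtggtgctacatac
Rps3 (chr7:99483690-99483719, minus strand): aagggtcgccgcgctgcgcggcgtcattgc
Rpl10l (chr12:66284382-66284411, minus strand): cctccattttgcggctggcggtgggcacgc

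Ribosomal protein genes held a large part of the MS-5 transcriptome. TPM values correct each estimated count for transcript length, so that genes can be set beside each other. Together the members held 14.9%, 10.9% and 13.9% of all TPM in MO1, MO2 and MO3, and 13.9%, 12.6% and 11.2% in MC1, MC2 and MC3. The mean share was 13.2% ± 2.08 in the MS-5 only libraries, against 12.6% ± 1.33 in co-culture (SD, n = 3 in each), and the difference of -0.625 percentage points was smaller than either SD. The 2 groups overlapped, with the lowest share of each group in MO2 and MC3.

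The members differed widely in level. The median mean level over the 6 libraries was 1528 TPM, 55 members were above 1000 TPM and 6 of the 79 were below 100 TPM. The highest was Rpl41, which encodes the smallest ribosomal protein, with 7153, 5457 and 6252 TPM in MO1, MO2 and MO3 and 7142, 5768 and 5227 TPM in MC1, MC2 and MC3. It was followed by the P stalk genes Rplp1 (6085 ± 1321 TPM in the MS-5 only libraries, against 5747 ± 1091 in co-culture) and Rplp0 (4705 ± 1237 and 4214 ± 902), and then by Rps15 (4210 ± 601 and 3816 ± 222; all SD, n = 3). The ranges over the 6 libraries of neighbours in this order overlapped.

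At the other end were Rpl10l, then Rps2, Rpl5, Rps18, Rpl29 and Rpl12, whose proteins are standard parts of each ribosome, apart from Rpl10l, a testis-enriched form of Rpl10. Rps2 had 18.6 to 28.5 TPM in the MS-5 only libraries, against 26.0 to 31.3 TPM in co-culture. Rpl5 had 17.1 to 44.7 and 24.3 to 47.2 TPM, and Rps18 had 31.7 to 76.0 and 28.9 to 80.6 TPM. Rpl29 had 47.9 to 50.4 TPM in the MS-5 only libraries, against 54.1 to 62.8 TPM in co-culture. These low levels went together with high counts in near-identical copies of the same genes, which are described below.

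The members rose and fell together from library to library, and the low libraries came from both culture conditions. Each gene's log2 CPM was set against its own mean over the 6 libraries, with CPM scaled between libraries by edgeR's TMM method. The median of the 79 members was 0.38 in MO1, -0.65 in MO2 and 0.34 in MO3, and 0.29 in MC1, 0.20 in MC2 and -0.58 in MC3. MO2 and MC3 were therefore low and the other 4 libraries high. In MO2 only 1 member (Rps18) was above its own mean and in MC3 only 4 were (Rps18, Rpl5, Rpl12 and Rpl10l), as the plot of members by library shows. MO2 was the lowest library of its group for 75 of the 79 members and MC3 for 77.

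**Figure D1:**
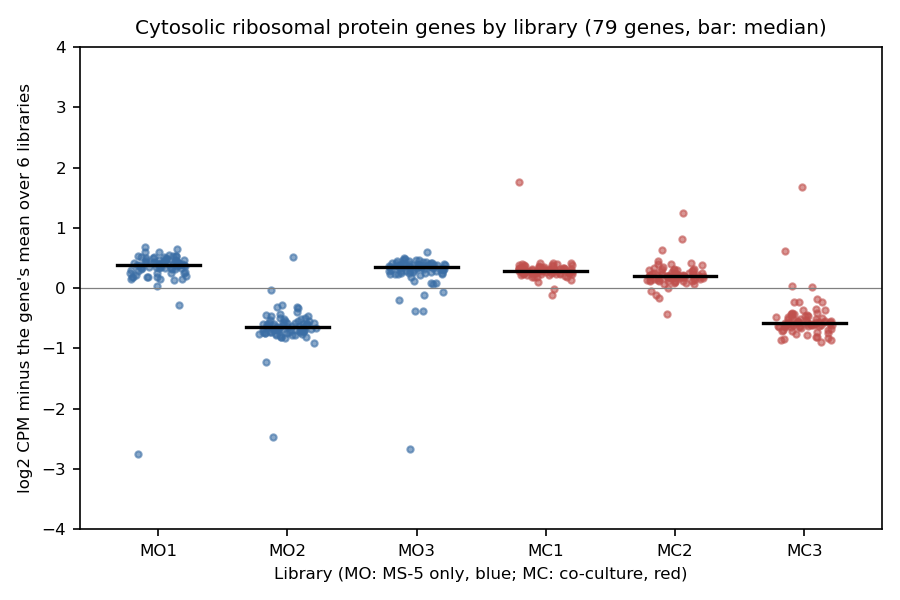
Level of each of the 79 tested ribosomal protein genes in each library, as log2 CPM minus the gene's mean over the 6 libraries (y axis), for MS-5 only (MO, blue) and co-culture (MC, red), with a bar at the median. The medians of MO2 (-0.65) and MC3 (-0.58) lie below 0 and those of the other 4 libraries lie between 0.20 and 0.38, and the gene near -2.5 to -2.8 in the MO libraries is Rpl10l.

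The mean of MO2 and MC3 was below the mean of the other 4 libraries by a median of -0.92 on the log2 scale, with 77 of 79 members lower (Rps18 had a positive difference of 0.84 and Rpl12 one of 0.01). This size holds for TMM-scaled CPM. As a share of all estimated counts the members held 3.76% and 3.91% in MO2 and MC3 against 5.47% to 6.42% in the others, and of all TPM they held 10.9% and 11.2% against 12.6% to 14.9%. Rpsa, the laminin receptor and a small subunit protein, had 1560 CPM in MO2 and 1481 CPM in MC3 against 3204 to 4308 CPM in the others. Rplp0, the scaffold of the P stalk, had 2320 and 2297 CPM against 4775 to 6229 CPM. For both genes the values of the 2 libraries lay apart from the other 4, and MO2 was nearer to MC3 than to any library of its own group.

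Other measures moved with the same 2 libraries. The summed stromal markers were 4348 CPM in MO2 and 4830 CPM in MC3 against 5685 to 6670 CPM in the others. Mitochondrially encoded transcripts held 6.07% of estimated counts in MO2 and 5.92% in MC3 against 10.6% to 13.2% in the others. Transcripts annotated as retained introns held 3.39% and 3.42% of all estimated counts against 1.49% to 1.64%, and within the ribosomal protein genes 3.69% and 3.62% against 2.43% to 2.61%. The share within the members includes 3 genes high in such transcripts in every library: Rps26 (99.3% to 99.8%), Rps16 (73.2% to 79.1%) and Rps20 (40.0% to 47.3%). Short mRNAs in general were also low in MO2 and MC3. Among 194 other protein-coding genes tested with transcripts of up to 600 bases the median deviation was -0.41 in MO2 and -0.36 in MC3, whereas among 4304 with transcripts over 3000 bases it was 0.18 and 0.16. The ribosomal protein mRNAs are short, with a median of 659 bases and 66 of 79 at or below 1000 bases. The part of these measures in the pattern of the members was not tested. In bulk RNA, fewer cells of a type and less RNA per cell cannot be told apart.

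Rps18 was the clearest exception and had 20.3 CPM in MO2 and 21.7 CPM in MC3 against 10.5 to 14.1 CPM in the others, the reverse of the rest. Retained-intron transcripts held 56.4% and 58.2% of its estimated counts in MO2 and MC3 and 13.9% to 15.4% elsewhere. In Rpl12 they held 56.3% and 52.5% against 26.2% to 29.6%, and in Rpl5 50.3% and 33.3% against 5.98% to 7.71%. The same shift was found in Rps2 (62.2% and 63.2% against 29.6% to 40.9%) and Rps12 (45.6% and 44.1% against 12.3% to 14.6%), members that were low in MO2 and MC3, and no retained-intron transcript was counted for Rpl10l.

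Co-culture was then compared with MS-5 only, the comparison for which the libraries were made. Only Rpl10l, of the 79 members tested, passed the threshold of an adjusted p-value under 0.1 (edgeR's quasi-likelihood F test, p-values adjusted by Benjamini-Hochberg across the 13221 genes), and it was higher in co-culture. Rpl10l was near 0 in MS-5 only and was kept by the filter on low counts only through co-culture, so that the filter fixed its direction. None passed lower by either edgeR (0.666% of all genes) or DESeq2 (2.72%). Over all genes tested, 4.38% passed in either direction and 3.71% passed higher. At an unadjusted p-value under 0.05 there was likewise 1 member, against 14.3% of all genes, and by DESeq2's Wald test 1 member passed, against 9.62% of all genes. The CPM of the 2 groups did not overlap for 1 member, against 21.2% of all genes. The standard errors of the other 78 members had a median of 0.37 on the log2 scale (0.15 to 0.52), larger than most of their fold changes.

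Log2 fold changes were small. Their median was -0.07 over the 79 members, and 19 were positive and 60 negative. Over all genes the median was -0.02 and 6945 of 13221 were negative. The median was -0.06 over 45 large subunit genes and -0.11 over 31 small subunit genes, with 33 and 24 of them negative. The 3 P stalk genes had -0.17 ± 0.52 (Rplp0), -0.06 ± 0.46 (Rplp1) and -0.03 ± 0.40 (Rplp2; log2 fold change ± SE, n = 3 in each group), and each of these turned positive when MC3 was left out (0.13, 0.23 and 0.22) or MO1 was (0.11, 0.17 and 0.17), and Rplp1 and Rplp2 also did so without MO3 (0.08 and 0.13).

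The sign of the median depended on single libraries. It was -0.33 without MO2, -0.23 without MC1 and -0.18 without MC2, and 0.15 without MC3, 0.11 without MO1 and 0.05 without MO3, while without both MO2 and MC3 it was -0.08. In the 4 libraries without MO2 and MC3, MC1 and MC2 were below MO1 and MO3 by a median of -0.10 (66 of 79 members lower), whereas MC3 was above MO2 by a median of 0.07 (60 of 79 higher). The difference between groups had opposite signs within the 2 sets of libraries. Whether the 2 sets are batches is not given in the labels.

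Taking MO2 and MC3 into account gave a few more calls. These 2 libraries were set apart by their values in these data and not by a label, which can make the adjusted p-values too small. With a covariate for these 2 libraries, 5 members passed the threshold, beside 30.2% of all genes tested. Among them Rpl10l, Rps7 (log2 fold change 0.79 ± 0.22, adjusted p = 0.0516) and Rpl29 (0.26 ± 0.08, adjusted p = 0.0587) were higher, and Rps27l (-0.28 ± 0.07, adjusted p = 0.0398) was lower. Without both libraries, Rpl10l and Rpl21 (-0.40 ± 0.09, adjusted p = 0.0842) passed, beside 13.0% of all genes. Under both settings a smaller share of the members than of all genes passed.

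Among members that did not pass, Rps7 had the largest positive value. Rps7 is a small subunit protein that also binds MDM2, the ligase that degrades p53. It lies at chr12:28630854-28635953 (GRCm38), and its levels were 88.9, 34.1 and 76.6 CPM in MO1, MO2 and MO3 and 103, 190 and 56.6 CPM in MC1, MC2 and MC3. MC2 was the highest. In TPM the groups did not overlap, with 126, 103 and 120 in MS-5 only against 195, 500 and 228 in co-culture. In CPM they overlapped through MC3 (log2 fold change 0.81 ± 0.52, adjusted p = 0.575). The value was 0.26 without MC2, 0.49 without MO2 and 0.33 with coding transcripts only, and 1.14 without MC3, 1.09 without MO1, 1.45 with the effective length offset and 1.28 by limma on log2(TPM + 0.5), and it passed in none of these. Much of the difference lay in 1 transcript annotated as a retained intron, Rps7-204, with 0, 124 and 82.8 estimated counts in the MS-5 only libraries, against 424, 1852 and 581 in co-culture. The main coding transcript Rps7-201 had 2128, 840 and 1531 against 2753, 2134 and 1109.

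Rps3, a small subunit protein at the mRNA entry site, was the next small subunit gene. Its levels were 644, 287 and 636 CPM in the MS-5 only libraries, against 678, 949 and 337 CPM in co-culture (0.33 ± 0.46, adjusted p = 0.867). The excess was in MC2, and without that library the value was -0.05. It was found in the 489-base transcript Rps3-205, with 8770, 4768 and 7432 estimated counts against 12501, 16479 and 6721, and not in the longer Rps3-201, with 7329, 4137 and 6599 against 9662, 6332 and 4701. Rps3, Rps7 and Rpl22 were highest in MC2, the library with the highest sum of leukocyte markers. The part of leukocyte RNA in these values was not tested.

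Of the large subunit genes, Rpl5, which carries 5S rRNA into the ribosome, had 35.9, 25.6 and 24.2 CPM in the MS-5 only libraries, against 38.2, 37.5 and 32.02 CPM in co-culture (0.33 ± 0.19, adjusted p = 0.523). Rpl29, a protein of the large subunit surface, had 23.8, 16.2 and 24.6 against 28.4, 28.2 and 20.5 CPM (0.25 ± 0.22, adjusted p = 0.727). Rpl22, a dispensable protein with a role in T cell development, had 260, 135 and 273 against 280, 355 and 154 CPM (0.24 ± 0.38, adjusted p = 0.893), and without MC2 its value was -0.04. In Rpl5 the MS-5 only library MO1 lay among the co-culture values, and in Rpl29 and Rpl22 MO2 and MC3 were the low values of their groups.

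Among the most negative values were those of Rpl21 (-0.29 ± 0.21, adjusted p = 0.625), Rps27l (-0.29 ± 0.40, adjusted p = 0.863), Rpl27 (-0.26 ± 0.46, adjusted p = 0.910), Rps23 (-0.24 ± 0.37, adjusted p = 0.878) and Rps20 (-0.23 ± 0.43, adjusted p = 0.915). Without MC3 the values of Rps27l and Rps23 were -0.0087 and -0.0089, and those of Rpl27 and Rps20 turned positive (both 0.03). Rpl21 had 303, 200 and 313 CPM in the MS-5 only libraries, against 225, 234 and 208 CPM in co-culture. Its group values overlapped through MO2. Rps27l, a p53-induced form of Rps27, had 201, 92.5 and 197 against 172, 153 and 77.3 CPM, with each co-culture value below MO1 and MO3 and 2 of them above MO2.

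Rpl10l was the member past the threshold, in the direction that the filter fixed. Rpl10l is an intronless retrogene of the X-linked Rpl10 at chr12:66283379-66284401, known for its role in male germ cells, where it stands in for Rpl10 during meiosis. It had 1, 2 and 1 estimated counts in MO1, MO2 and MO3, and 80, 393 and 79 in MC1, MC2 and MC3, which correspond to 0.0399, 0.0637 and 0.0453 CPM against 2.44, 16.3 and 2.30 CPM. The groups did not overlap, and MC2 had more than the other co-culture libraries together (log2 fold change 6.99 ± 1.15, adjusted p = 0.0734). The fitted fold change rests on 4 counts in MS-5 only. The value was 5.43 without MC2 (adjusted p = 0.0150), and the call was lost without MO1 (adjusted p = 0.300), without MO2 (0.149) or without MO3 (0.290), settings in which none of all genes passed in edgeR, although 1478, 2819 and 1578 genes had an unadjusted p-value under 0.05. Even in MC2 the level of Rpl10l, at 20.02 TPM, was far below the 1142 TPM of Rpl10. The CPM of Rpl10 was 632, 329 and 573 in the MS-5 only libraries, against 552, 563 and 339 in co-culture (-0.08 ± 0.32, adjusted p = 0.976).

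The coding sequences of Rpl10 and Rpl10l aligned without gaps over 645 bases with 98 mismatches (84.8% identity), and 76.6% of the 31-base words of Rpl10l were found in no other transcript of the annotation, so that most words of Rpl10l differ from those of other mouse transcripts. Rpl10 lies at chrX:74270812-74273135. The first 60 bases of both coding sequences are shown with the 9 differing bases in capitals, from the GENCODE M21 transcripts.
Rpl10: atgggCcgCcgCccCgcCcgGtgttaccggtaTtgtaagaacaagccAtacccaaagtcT
Rpl10l: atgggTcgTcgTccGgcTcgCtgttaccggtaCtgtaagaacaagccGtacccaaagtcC
The matching stretch of Rpl10-ps3, which is annotated as protein coding on chr9, had no difference from Rpl10 over all 645 bases, so that a read from within it has no letter by which the 2 could be told apart.

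Some leukocyte markers moved with Rpl10l. The level in MC2 was 6.69 times that in MC1 for Rpl10l, 6.77 times for Spi1, 6.16 times for Laptm5, 5.81 times for Coro1a, 5.65 times for Irf8, 5.80 times for Mpo, 5.02 times for Csf1r and 4.94 times for Ptprc, in a comparison of CPM. For the other 3 of the 10 markers tested, Lyz2, Cd14 and Cd53, it was 1.08, 1.01 and 0.963 times, and for the sum of all 14 markers it was 3.43 times. The part of leukocyte RNA in the Rpl10l value was not tested. SKM-1 cells are human and reads were quantified on mouse transcripts only, and whether reads of SKM-1 cells were counted on Rpl10l was not tested.

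Copies of the ribosomal protein genes held a large part of their reads. Genes outside the rule that share at least 100 words of 31 bases with a coding transcript of a member, and that are pseudogenes or share at least 50% of their own words, were taken as copies. This search, made after earlier values had been seen, found 653 copies of 71 members, 643 of them annotated as pseudogenes and 10 as protein coding. Rpl7a had 63 copies, Rps2 had 59, Rpl21 had 58 and Rpl29 had 41, and 9 members had none, among them Rpl39, Rpl41, Rplp2 and Rps27l. For 15 members, copies held more than 50% of the estimated counts of the gene and its copies together, and for 42 they held less than 1%.

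**Figure D2:**
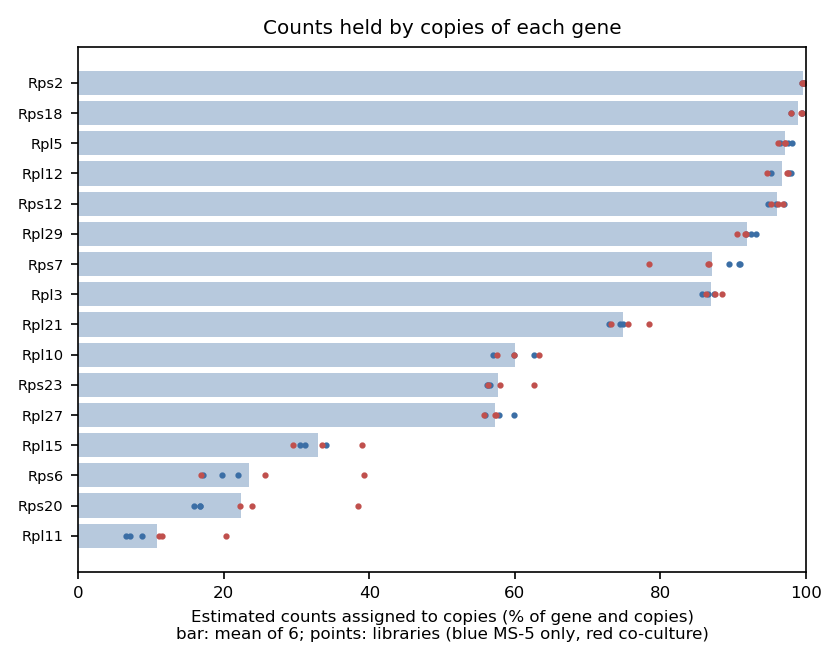
Share of estimated counts assigned to the copies of each member, as a percent of the counts of the gene and its copies together (x axis), for the members named in the text that have a mean share above 10%. Bars are the mean of 6 libraries and points are the libraries (MS-5 only blue, co-culture red). Rps2, Rps18, Rpl5, Rpl12 and Rps12 lie above 94% in each library.

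Copies held 99.6% of the counts of the Rps2 family on average, 98.9% for Rps18, 97.1% for Rpl5, 96.7% for Rpl12, 96.0% for Rps12 and 91.9% for Rpl29, which apart from Rps12 were the members that stood lowest in TPM after Rpl10l. In each case 1 or 2 copies took most of them. Rps2-ps10, with 5 mismatches to Rps2 over 882 bases (99.4% identity), had 5214, 1775 and 4311 CPM in MO1, MO2 and MO3 and 4815, 4008 and 1740 CPM in MC1, MC2 and MC3, beside 8.91 to 14.9 CPM for Rps2 itself. Gm10275 matched the 498 coding bases of Rpl12 with no mismatch and had 1818, 750 and 1717 against 1550, 1396 and 719 CPM. Gm15500 matched the 894 bases of Rpl5 with no mismatch and had 1380, 701 and 1268 against 1297, 1253 and 788 CPM. These copies were low in MO2 and MC3, like most ribosomal protein genes. How reads were divided between these members and their copies was not tested, and their own values are uncertain for that reason.

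Adding the copies to their genes raised the share of all estimated counts from between 3.76% and 6.42% to between 4.97% and 8.54% of a library. The co-culture result did not change in number, with Rpl10l again the 1 member past the threshold beside 4.19% of all genes, and the median of the 79 families was -0.05. Values moved both ways. The Rps7 family had 0.02 ± 0.41, the Rpl5 family 0.01 ± 0.34 and the Rpl29 family 0.05 ± 0.27, while Rps3, whose 1 copy held under 0.35% of its counts, stayed at 0.33 ± 0.46. Of the 79 values, 8 turned from negative to positive, among them Rps20 (-0.23 to 0.01), Rps6 (-0.12 to 0.06), Rpl19 (-0.03 to 0.05) and Rps24 (-0.08 to 0.03), and 3 turned negative.

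Copies were also tested on their own. Of 168 copies tested by edgeR, 25 rose in co-culture (14.9%, beside 3.71% of all genes) and 0 fell, also at an unadjusted p-value under 0.05 and by DESeq2's Wald test, in which 29 passed. The other 485 copies did not pass the filter on low counts and were not tested, and copies near 0 in MS-5 only could pass it only through co-culture, so that the share and its direction are shaped by the filter and support nothing about copies in general. They were copies of 20 members. The summed level of the 25 was 12.3, 11.0 and 13.6 CPM in the MS-5 only libraries, against 231, 1366 and 158 CPM in co-culture, a separation that their selection as higher copies fixes. The sum of the 143 other copies tested was 22814, 10345 and 21440 CPM against 21618, 19601 and 10484 CPM, low again in MO2 and MC3.

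The copies named here were chosen after their values were seen. Rpl19-ps1, a copy of the large subunit gene Rpl19, had 9.20, 22.2 and 0 estimated counts in the MS-5 only libraries, against 784, 4658 and 618 in co-culture (log2 fold change 7.68 ± 1.42, adjusted p = 0.0734), while Rpl19 itself had -0.03 ± 0.36. Gm16409, a copy of Rps6, the S6 kinase substrate, had 6.15, 27.4 and 8.78 against 968, 4516 and 625 (7.23 ± 1.20, adjusted p = 0.0734), while Rps6 had -0.12 ± 0.32. Gm8942, a copy of Rps24, had 0, 0 and 6.08 against 716, 3442 and 496. MC2 was 1.14 to 8.29 times MC1 among the 25, with a median of 6.65, beside 6.69 for Rpl10l and 0.963 to 6.77 among the 10 leukocyte markers tested. The part of these markers in the copies' values was not tested, nor was whether reads of SKM-1 cells were counted on these copies.

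**Figure D3:**
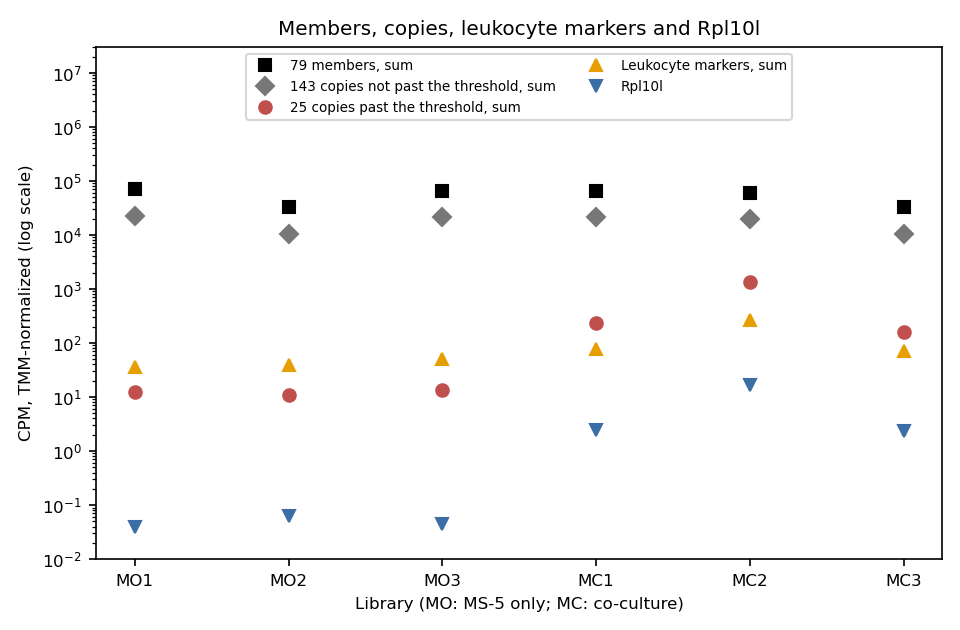
CPM (log scale, y axis) in each library of the summed 79 members, the summed copies that did and did not pass the threshold, the summed leukocyte markers and Rpl10l; MO is MS-5 only and MC is co-culture. The 25 copies past the threshold, the leukocyte markers and Rpl10l are highest in MC2, at 1366, 268 and 16.3 CPM, whereas the members and the other copies are lowest in MO2 and MC3.

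Isoforms within a gene also varied between libraries. Rps24 has coding transcripts that differ in short terminal exons and end in different residues. Rps24-202 held 52.3%, 64.3% and 64.4% of the gene's coding TPM in the MS-5 only libraries, against 60.3%, 63.3% and 68.1% in co-culture. Rps24-201 held 35.3%, 18.3% and 18.9% against 26.3%, 20.7% and 15.3%. The groups overlapped in both, and MO1 and MC1 had the highest shares of Rps24-201.

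Members with paralogues were compared with their partners. Rpl39l, a form of Rpl39 enriched in testis and in some cancer lines, had 108, 69.3 and 121 CPM in the MS-5 only libraries, against 108, 112 and 66.5 CPM in co-culture (-0.06 ± 0.28), beside 0.01 ± 0.32 for Rpl39. Rps27 had -0.02 ± 0.36, beside -0.29 ± 0.40 for Rps27l. Rpl22l1, Rpl7l1 and Rpl36al, which lie outside the symbol rule, had -0.03 ± 0.39, -0.28 ± 0.19 and -0.13 ± 0.36. Rps4l, the partner of Rps4x, was listed at 0 in each library. Of 14 tested genes of these pairs Rpl10l passed the threshold, beside 4.38% of all genes.

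A pair of member groups are known for roles outside the ribosome or in disease. Free Rpl5 and Rpl11 join 5S rRNA and hold MDM2, and several others bind MDM2 as well. None of the 12 members of this list passed by edgeR or DESeq2 or had an unadjusted p-value under 0.05 (beside 4.38%, 9.62% and 14.3% of all genes), 4 were positive, and the median was -0.07, with Rpl11 at 622, 289 and 594 CPM in the MS-5 only libraries, against 541, 497 and 299 CPM in co-culture (-0.17 ± 0.36). Among 12 genes with mutations in congenital anaemia none passed by either tool or had an unadjusted p-value under 0.05, beside the same shares of all genes, and the median was -0.05. With the covariate for MO2 and MC3, Rps7, which is in both lists, and Rps27l, which is in the first, passed as given above. Rps19, the gene most often mutated in Diamond-Blackfan anaemia, had 811, 391 and 731 against 774, 766 and 422 CPM (0.02 ± 0.36).

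The ribosomal protein genes outside the symbol rule gave no call either. Fau, which encodes the small subunit protein eS30 fused to a ubiquitin-like protein, had -0.03 ± 0.38, and Rack1, a scaffold on the small subunit, had 0.00 ± 0.43. None of the 6 tested passed by edgeR or DESeq2 or had an unadjusted p-value under 0.05, beside 4.38%, 9.62% and 14.3% of all genes. Of 17 translation factors and other TOP mRNAs none passed or had an unadjusted p-value under 0.05 by edgeR, with a median of 0.01. Eif4b, a helper of the eIF4A helicase, had the largest value (0.32 ± 0.20, adjusted p = 0.550) and was the 1 gene of this list to pass by DESeq2's Wald test, and Eef1d, an exchange factor for eEF1A, the most negative (-0.27 ± 0.44, adjusted p = 0.893). The elongation factor Eef1a1 had 12325, 6398 and 12042 CPM against 12578, 12635 and 6434 CPM, with the same low values in MO2 and MC3.

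Genes that build ribosomes had mostly negative values. Among 53 ribosome biogenesis factors 47 were negative, beside 6945 of all 13221 genes, and the median was -0.46. An unadjusted p-value under 0.05 was found for 12, beside 14.3% of all genes. By edgeR 1 passed the threshold lower, beside 0.666% of all genes, and by DESeq2's Wald test 8 passed, each lower, beside 2.72%. The 1 gene past the threshold by edgeR was Heatr1, a processome subunit needed for transcription and processing of rRNA, with 63.4, 45.8 and 45.1 CPM in the MS-5 only libraries, against 27.9, 32.3 and 25.5 CPM in co-culture (-0.85 ± 0.19, adjusted p = 0.0874). The groups did not overlap, and the call was lost when any 1 library was left out (-0.95 to -0.65). It was also lost with the replicate number as a block (-0.84, adjusted p = 0.232) and with the effective length offset (-0.81, adjusted p = 0.109). Limma on TPM (-0.79 to -0.72) lost it as well, as did coding transcripts only (-0.84, adjusted p = 0.137), a setting in which 3 of all genes passed. Grwd1, a histone chaperone bound to pre-60S particles, had 83.3, 41.3 and 56.0 against 34.9, 32.4 and 21.4 CPM (-1.03 ± 0.31, adjusted p = 0.175).

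The products of mitochondrial ribosomal protein genes make the separate ribosome inside mitochondria. Of 78 tested, 73 were negative, beside 6945 of all 13221 genes, and the median was -0.30. None passed by edgeR, with 6 lower at an unadjusted p-value under 0.05 (beside 14.3% of all genes in either direction). By limma on log2(TPM + 0.5) none passed and 22 were lower at an unadjusted p-value under 0.05, beside 9.54% of all genes in either direction, while Mrpl41 passed lower by DESeq2's Wald test (beside 2.72% of all genes). Among 15 genes of RNA polymerase I and its factors, which transcribe rRNA, none passed by edgeR (beside 4.38% of all genes) and 1 had an unadjusted p-value under 0.05 (beside 14.3%), with a median of -0.19. Rrn3, the factor that brings the polymerase to the rRNA gene promoter, had -0.51 ± 0.14 (adjusted p = 0.153) and passed lower by DESeq2's Wald test, beside 2.72% of all genes. The difference between these lists and the cytosolic ribosomal protein genes was not tested, and how far the medians of these lists depend on single libraries was not examined.

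**Figure D4:**
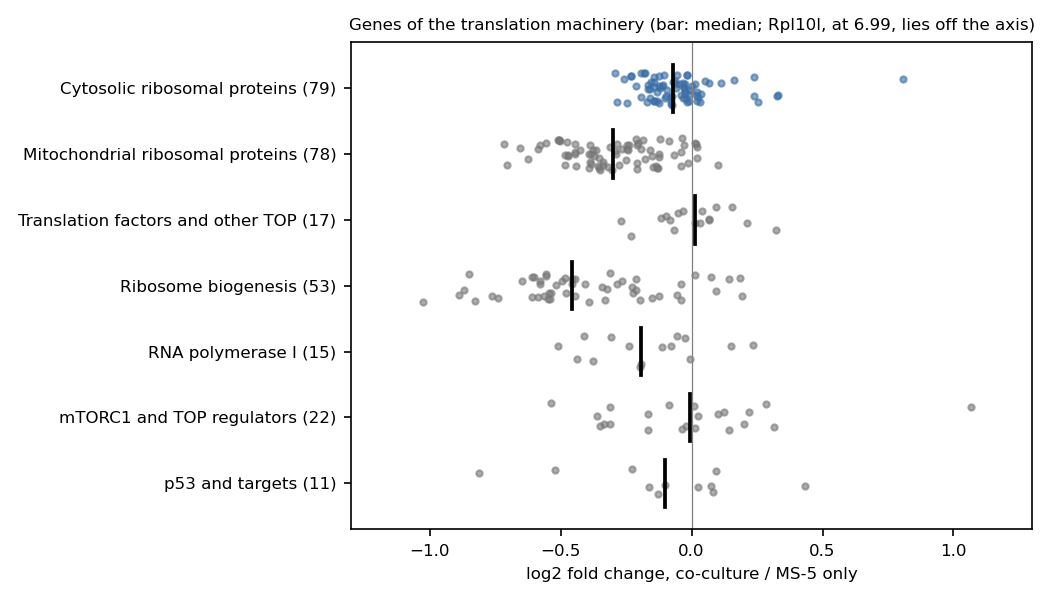
Log2 fold change in co-culture against MS-5 only (x axis) of each tested gene of the cytosolic ribosomal proteins (blue) and of 6 other lists (grey), with a bar at each median and the number tested in brackets. Medians are -0.07 for the cytosolic and -0.30 for the mitochondrial ribosomal proteins and -0.46 for ribosome biogenesis, and Rpl10l, at 6.99, lies off the axis.

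Genes of the mTORC1 pathway, the S6 kinase genes left out by the symbol rule, and p53 and its targets were measured in the same libraries. By edgeR 1 gene passed the threshold in each of these 3 lists, beside 4.38% of all genes. By DESeq2's Wald test (9.62% of all genes) 2 passed in the mTORC1 list, Ddit4 higher and Mlst8, a subunit of mTORC1, lower, 2 passed in the p53 list, Gtse1 lower and Cdkn1a higher, and 1 passed among the S6 kinase genes. Of 22 genes of the mTORC1 pathway 1 passed, Ddit4, an inhibitor of mTORC1 induced by stress, which rose from 108, 92.5 and 93.0 CPM to 234, 177 and 205 CPM (1.07 ± 0.16, adjusted p = 0.0734). Larp1, the TOP mRNA binding protein, had 149, 232 and 103 against 138, 133 and 207 CPM (-0.02 ± 0.33). Of 9 tested S6 kinase genes Rps6ka1 passed (2.52 ± 0.58, adjusted p = 0.0946), with 6.35, 7.38 and 5.21 against 19.4, 71.4 and 18.2 CPM. Its highest value was in MC2, the library with the highest sum of leukocyte markers. The part of leukocyte RNA in the Rps6ka1 value was not tested. Of 11 tested genes of p53 and its targets Gtse1, a regulator of p53 localisation, passed and fell from 101, 104 and 92.6 CPM to 56.1, 55.9 and 57.5 CPM (-0.81 ± 0.11, adjusted p = 0.0734), and Cdkn1a had 0.43 ± 0.12 (adjusted p = 0.141). The calls of Ddit4, Rps6ka1 and Gtse1 were lost without MO1, MO2 or MO3 (adjusted p from 0.149 to 0.311), settings in which none of all genes passed in edgeR, as well as without MC1 (0.103 to 0.111) and, for Gtse1, without MC2 (0.115), with the replicate number as a block (-0.81, adjusted p = 0.153) and with library size alone (0.104). Rps6ka1 was also lost with library size alone (2.44, adjusted p = 0.106) and with the effective length offset (3.79, adjusted p = 0.109). With each library left out in turn the fold changes were 0.95 to 1.17 for Ddit4 and -0.86 to -0.77 for Gtse1, and 1.57 to 2.84 for Rps6ka1, the lowest without MC2. Each of the 3 was lost by limma on TPM and with coding transcripts only.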

How the data were processed

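RNA-seq of 6 libraries was used, with groups and replicate numbers from the sample labels. The authors quantified reads with kallisto 0.43.0 using a GRCm38 index of mouse cDNA. Per transcript, the authors deposited an estimated count, a TPM value, and the length and effective length in bases (other values, used only for an offset), with no filter or pooling. Of 118489 transcripts, 116728 matched GENCODE M21 by identifier and length; the others, up to 0.562% of counts, were left out. The methods name Ensembl release 67 for the index.

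Gene sums of estimated counts were rounded, filtered by filterByExpr and scaled by TMM. The main test was the quasi-likelihood F test of edgeR 4.0.16 in R 4.3.3. P-values were adjusted by Benjamini-Hochberg across tested genes, at a threshold of 0.1. The SE was taken as |log2 fold change| over sqrt(F). Deviations use log2 CPM with a prior count of 2. Depth was 23978881 to 35694987 counts a library, which limits genes of few counts such as Rpl10l. Counting error is covered only through the fit.

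The members and lists were chosen with earlier results of these data known. Named genes were the members past the threshold, the 6 highest and 6 lowest by log2 fold change, the 5 highest and 5 lowest by mean TPM, and genes of the lists where the text turns to them. A few genes that this rule would name are not reported here. Stromal and leukocyte markers were listed as checks. Alternatives were DESeq2 1.42.0 (size factors, Wald test), limma 3.58.1 on log2(TPM + 0.1, 0.5 or 1), library size alone, TMM without the members, an effective length offset, filters of 10 or 5 counts in 3 libraries or none, coding transcripts only, pseudogene symbols added to their genes, a replicate block, a covariate for or removal of MO2 and MC3, each library left out, and thresholds of 0.05 and 0.01. Adding the copies found by sequence was chosen after seeing the data, and MO2 and MC3 were set apart by their values in these data. Sleuth was not used here.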

Additional observations from a re-analysis of the deposited data

How the results depend on the processing

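Rpl10l was the 1 member past the threshold under most alternatives. It rose to 5 when MO2 and MC3 had a covariate and to 2 when both were removed, and 0 with coding transcripts only, with limma on log2(TPM + 1), at a threshold of 0.05 and at 0.01. Leaving out 1 library gave counts of 0 to 1, a median log2 fold change of the members of -0.33 to 0.15 and a difference in their TPM share of -1.79 to 0.21 percentage points. The main value of -0.625 lies inside this range, and the sign of neither quantity is set by these data. Under the replicate block the count was 1 (Rpl10l at 6.83, adjusted p = 0.0131) and the median -0.05. Whether same-numbered libraries form pairs is not given in the labels. The deviations of same-numbered libraries correlated at 0.53, -0.29 and -0.52, and MO2 correlated best with MC3 (0.73). Deviations within a group of 3 libraries sum to 0, so these correlations cannot decide on pairing. Over all genes the block moved the lower calls from 88 to 1 and the higher from 491 to 443. The direction turned in single members when 1 library was left out, over -0.046 to 0.64 for Rps3, -0.042 to 0.51 for Rpl22, -0.60 to 0.042 for Rpl27, -0.55 to 0.032 for Rps20, -0.50 to 0.13 for Rplp0, -0.37 to 0.23 for Rplp1 and -0.32 to 0.22 for Rplp2, and in Rps20 with the copies found by sequence added (0.013), an alternative chosen after seeing the data. Over all genes, 1268 passed by DESeq2's Wald test and 3 with coding transcripts only, beside 579 in the main test.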
